A study of Arabidopsis thaliana with 14 samples.

Results

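TEX1 is a subunit of the THO complex, and the loss of TEX1 was measured in 2 experiments on these roots, with plants grown in pots and with seedlings grown on plates. The genes described here are all those whose reads could be tested in both experiments, and the question is which of them responded to the loss of TEX1 alike in both settings and which did not. In pots, 2 libraries of pho1-7 tex1-4 were compared with 2 libraries of pho1-7. On plates, 3 libraries of tex1-4 were compared with 3 libraries of Col-0, the wild type. These 10 libraries are part of a series of 14, whose other 4 are Col-0 and pho1-7 hpr1 from pots. Of the 33602 genes in the count files, 22670 passed the filter on low counts and were tested in both settings. Of these, 121 changed alike and 336 had a response that differed between the settings.

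The 4 groups differ in more than TEX1. The pot plants were 3 weeks old and grew in a clay substrate wetted with half-strength Murashige and Skoog salts. The plate seedlings were 10 days old by their labels, although the methods of the study give a younger age, and grew on agar with the same salts and sucrose. All plants are in the Columbia background. Both pot groups carry pho1-7, a T-DNA insertion in PHO1 that removes an exon, and both mutant groups carry the single T-DNA allele tex1-4. The pot libraries were sequenced from 1 end and the plate libraries from both ends. Growth medium, age, library type and the pho1-7 mutation therefore change together between the settings and cannot be told apart. The libraries are described as biological replicates with no word on separate pots or plates, so p-values measure only the spread between these libraries. In whole roots, fewer cells of a type and less RNA per cell cannot be told apart either.

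THO is a nuclear complex that binds nascent mRNA during transcription and, with the helicase UAP56 and the ALY adaptors, forms TREX, which hands the mRNA over to export. In plants, THO subunits are also needed for normal levels of trans-acting siRNAs and of some microRNAs, and they act on where transcripts end. PHO1 exports phosphate into the root xylem, so roots of pho1 mutants feed a phosphate-starved shoot. PHO1 mRNA rose when TEX1 was lost from pho1-7, so the pot comparison holds the loss of TEX1 together with more PHO1 mRNA. On plates PHO1 mRNA was slightly lower without TEX1. What the rise of PHO1 mRNA contributed to the pot response was not tested. Growth medium, age, library type and the pho1-7 mutation also differ between the settings.

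Reads on genes ranged from 56068761 to 99111465 in the 4 pot libraries compared and from 89981926 to 110039106 in the 6 plate libraries. Root markers were present in all of them, with the summed level of 12 markers between 756 and 1115 CPM (a gene's reads over the scaled total of its library). Leaf photosynthesis markers were also detected, with 13 of 14 genes tested. RBCS2B, of the Rubisco small subunit, was at 0 in 3 libraries of the series, and the other tested members were detected in every library. Their summed level was 212 and 178 CPM in pho1-7 but 21.7 and 174 CPM in pho1-7 tex1-4, so the first library of the double mutant stood apart. On plates it was 193 to 243 CPM in Col-0 and 119 to 139 CPM in tex1-4. The median log2 change of the list was -0.97 in pots and -0.77 on plates, against -0.03 and 0.0006 over all genes, with 2 of the 13 members called lower in pots and 1 on plates, where 2.85% and 3.53% of all genes were, and its part in other results was not tested. The second Col-0 library from plates was the farthest from its group, with a median absolute deviation of 0.145 on the log2 scale against at most 0.108 in the others.

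TEX1 (AT5G56130, chromosome 5) was low in every library labelled tex1-4. Its level was 12.1 and 13.3 CPM in pho1-7 and 0.959 and 0.67 CPM in pho1-7 tex1-4. On plates it was 15.3, 15.2 and 15.3 CPM in Col-0 and 2.62, 2.67 and 2.23 CPM in tex1-4. The groups were wide apart in both settings. The fall was -3.99 ± 0.17 (SE of the log2 change, n = 2 and 2) in pots and -2.60 ± 0.12 (n = 3 and 3) on plates, and the difference of -1.39 was itself called (adjusted p = 0.012 in the quasi-likelihood test of edgeR, adjusted by Benjamini-Hochberg over all genes, as for every adjusted p given here). Of the 10 genes on either side of TEX1, 15 of the 20 were tested. None was called in pots, and on plates only NAS2, a nicotianamine synthase that makes a metal chelator, was called, at 1.38.

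PHO1 (AT3G23430, chromosome 3) was called in pots only. Its level was 196 and 182 CPM in pho1-7 and 354 and 403 CPM in pho1-7 tex1-4, while the Col-0 libraries from pots had 983 and 923 CPM. These counts per gene pool unlike transcripts. The study reports that this T-DNA allele gives transcripts ending inside the T-DNA and others that reach the PHO1 terminator but lack an exon. It finds mostly the latter once TEX1 is also lost. The pot levels of the mutants are therefore not levels of intact PHO1 mRNA. The study also reports that the mRNA lacking the exon is in frame. It finds that the shortened protein exports phosphate and restores shoot growth to a mutant without PHO1. It detects more of this protein in roots of the double mutant than of the parent. With a different TEX1 mutation in the same background, it reports phosphate starvation genes in shoots comparable to wild type, but shoot phosphate stayed low. The part of this protein in the root response was not tested. On plates the PHO1 level was 320, 291 and 285 CPM in Col-0 and 264, 252 and 237 CPM in tex1-4. The log2 change was 1.00 ± 0.097 in pots and -0.25 ± 0.078 on plates, and the difference was 1.26 (95% interval 0.98 to 1.53, adjusted p = 0.0025). The pot change sits at the threshold and was 0.91 without the second double mutant library and 0.95 without the second pho1-7 library, below the change of 1 that a call needs.

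Across genes, the settings shared part of the response. A gene was called when its adjusted p was under 0.1 and its change over 2-fold, that is over 1 on the log2 scale. In pots, 380 genes were higher (1.68% of those tested) and 646 lower (2.85%) in the double mutant. On plates, 617 were higher (2.72%) and 800 lower (3.53%) in tex1-4. Of all these, 168 were higher in both (0.741%) and 204 lower in both (0.9%), which is 36.3% of the genes called in pots and 26.3% of those called on plates. In opposite directions, 19 genes (0.0838%) were called, 11 lower in pots and higher on plates and 8 the reverse, and this count was 9 without the first pho1-7 library and 34 without the second Col-0 library from plates. No library is shared between the comparisons.

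The direction of change was also compared. Of the 1026 genes called in pots, 834 had a change of the same sign on plates, and of the 1417 called on plates, 1191 had the same sign in pots. Both counts include the 372 genes called in both, so neither could be smaller. The share of the same sign over all genes was not counted, so they say nothing particular about called genes. Over all 22670 genes, the log2 changes had a Pearson correlation of 0.459 and a Spearman correlation of 0.585, given as a description, since genes are not independent and all libraries share 1 gene annotation. Among the 372 genes called in both, the median absolute change was 1.54 in pots and 1.66 on plates, and 182 changed more in pots. Without the first pho1-7 library, the genes called in pots fell to 565 and those called in both to 224, of which 110 were higher and 114 lower.

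**Figure D1:**
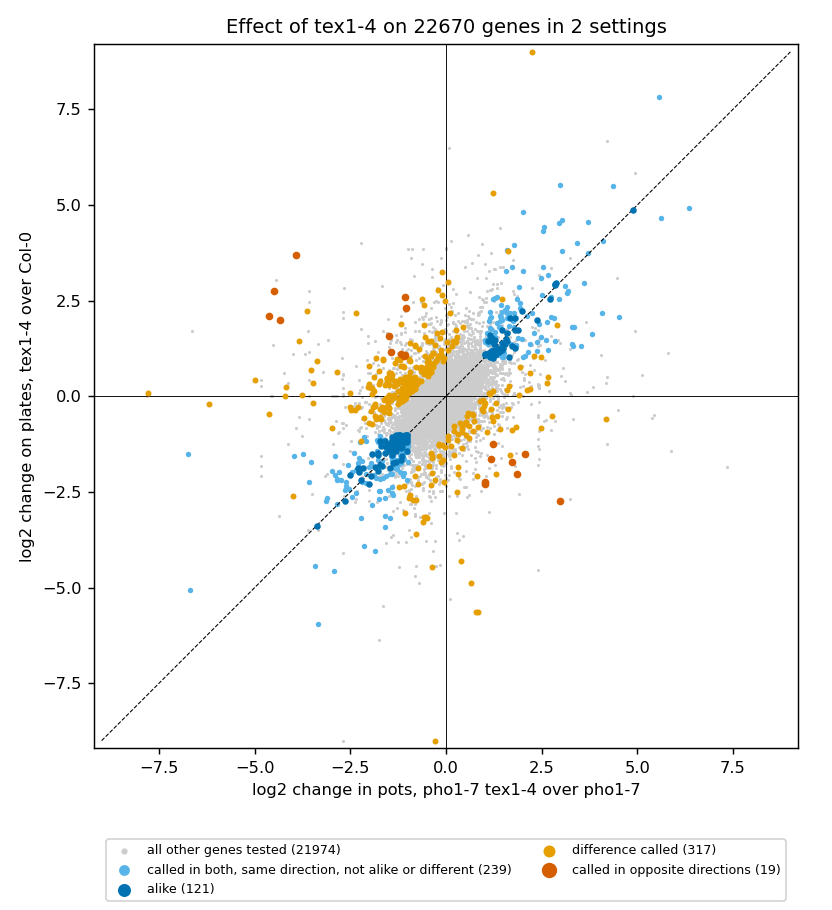
Log2 change of each of 22670 genes in pots (pho1-7 tex1-4 over pho1-7, horizontal axis) and on plates (tex1-4 over Col-0, vertical axis), with the line of equal change dashed and 3 genes beyond 9 drawn at the edge. The 121 alike genes lie along the dashed line in 2 clouds past a change of 1, the 19 genes called in opposite directions lie in the upper left and lower right, and the other 317 genes with a called difference spread along both axes.

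To call a response alike, a gene had to be called in both settings in the same direction, and the 95% interval of the difference between its log2 changes had to lie within 1 unit on both sides of 0. This held for 121 genes, of which 48 rose and 73 fell. Another 239 genes were called in both settings with an interval too wide to say, and 12 were called in both with a called difference. The limit is close for some genes. AT3G44800 was just inside it, with an interval of -0.99 to 0.61, and AT5G07380, with 0.28 to 1.04, was just outside. Of the 121 alike genes, 101 are annotated as protein-coding, and most of the rest are noncoding RNA genes or pseudogenes.

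Among the alike genes that rose, the first by the smaller of the changes in the 2 settings was AT4G04223, a noncoding RNA gene on chromosome 4. It had 1.99 and 1.33 CPM in pho1-7 and 11.8 and 9.88 CPM in pho1-7 tex1-4. On plates it had 2.19, 2.56 and 2.79 CPM in Col-0 and 14.3, 15.3 and 14.1 CPM in tex1-4. The groups did not overlap in either setting, and the log2 changes were 2.71 ± 0.19 and 2.54 ± 0.15, with a difference of 0.17 (-0.35 to 0.70). A second noncoding RNA gene, AT5G60022, rose by 2.38 and 2.00 and lies opposite another gene on the other strand. The libraries were stranded, but the sources used here do not say whether the counting used the strand.

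Among the other named alike genes that rose, MPK12 (AT2G46070, chromosome 2), a mitogen-activated protein kinase known from guard cells, had 1.86 and 2.2 CPM in pho1-7 and 7.06 and 7.16 CPM in pho1-7 tex1-4. In the plate libraries it had 1.04, 1.21 and 1.29 CPM in Col-0 and 4.63, 5.37 and 4.79 CPM in tex1-4. Its rise was 1.81 ± 0.15 in pots and 2.06 ± 0.12 on plates, with no overlap of groups. NAC103, a transcription factor of the unfolded protein response, rose by 1.89 and 1.74, from 0.42 and 0.621 CPM to 1.93 and 1.94 CPM in pots and from 1.54 to 2.25 CPM to 6.06 to 6.76 CPM on plates. PIP5K5, which makes the membrane lipid phosphatidylinositol 4,5-bisphosphate, rose by 1.56 and 1.50.

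Further genes of this group are known by their annotation. The receptor-like kinase gene AT4G39110 rose by 1.80 and 1.74 and the PHD finger gene AT5G58610 by 1.46 and 1.73. AT1G49920, annotated as a transposase of the MuDR family, rose by 1.99 and 2.23, and AT4G31520, of the SDA1 family, by 1.59 and 1.66. AT1G65370, whose product has a TRAF-like domain, was the most abundant. It had 28.7 and 38.8 CPM in pho1-7, 121 and 95.5 CPM in pho1-7 tex1-4, 14.2 to 16.6 CPM in Col-0 on plates and 58.9 to 71.7 CPM in tex1-4. The groups were apart in both settings, at 1.68 ± 0.17 and 2.05 ± 0.14.

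Among the alike genes that fell, AT3G22570, of the lipid-transfer protein and seed storage albumin superfamily, came first. Its level was 19.3 and 17.3 CPM in pho1-7 and 2.76 and 3.12 CPM in pho1-7 tex1-4. On plates it was 38.2, 51.9 and 44.8 CPM in Col-0 and 6.22, 6.24 and 7.77 CPM in tex1-4. The groups did not overlap, and the log2 change was -2.63 ± 0.17 in pots and -2.74 ± 0.13 on plates. AT1G52820, a 2-oxoglutarate and iron-dependent oxygenase, fell from 127 and 93.5 to 22.7 and 24 CPM in pots and from 59.9 to 115 CPM to 14 to 22.9 CPM on plates, with changes of -2.23 and -2.19. Its relative AT1G52790 fell by 2.63 in pots and 2.45 on plates, with an interval too wide for the alike class.

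AT4G23670, a protein of the polyketide cyclase and lipid transport superfamily, had a starting level that differed widely between the settings. It had 96 and 115 CPM in pho1-7 and 35.1 and 27 CPM in pho1-7 tex1-4. The plate levels were 1579, 1609 and 1826 CPM in Col-0 and 404, 446 and 450 CPM in tex1-4. The change was nonetheless -1.77 ± 0.15 in pots and -1.95 ± 0.12 on plates, with a difference of 0.18 (-0.23 to 0.59). AT1G26800, a RING-domain protein, fell by 1.85 and 1.86, and AT3G11370, of the cysteine and histidine-rich C1 domain family, by 1.96 and 2.08.

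The other named genes that fell are short or poorly annotated, and several overlap a gene on the other strand. AT5G42825, AT5G66052 and the long noncoding RNA gene AT2G26355 lie antisense to a neighbour. They fell by 2.52, 2.28 and 2.17 in pots and by 2.06, 1.99 and 1.88 on plates. AT4G04692, a transcribed pseudogene, fell by 2.01 in pots and 2.30 on plates. AT1G49032 changed by -2.29 and -1.87, and it overlaps AT1G49030 on the same strand, so its reads are uncertain.

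**Figure D2:**
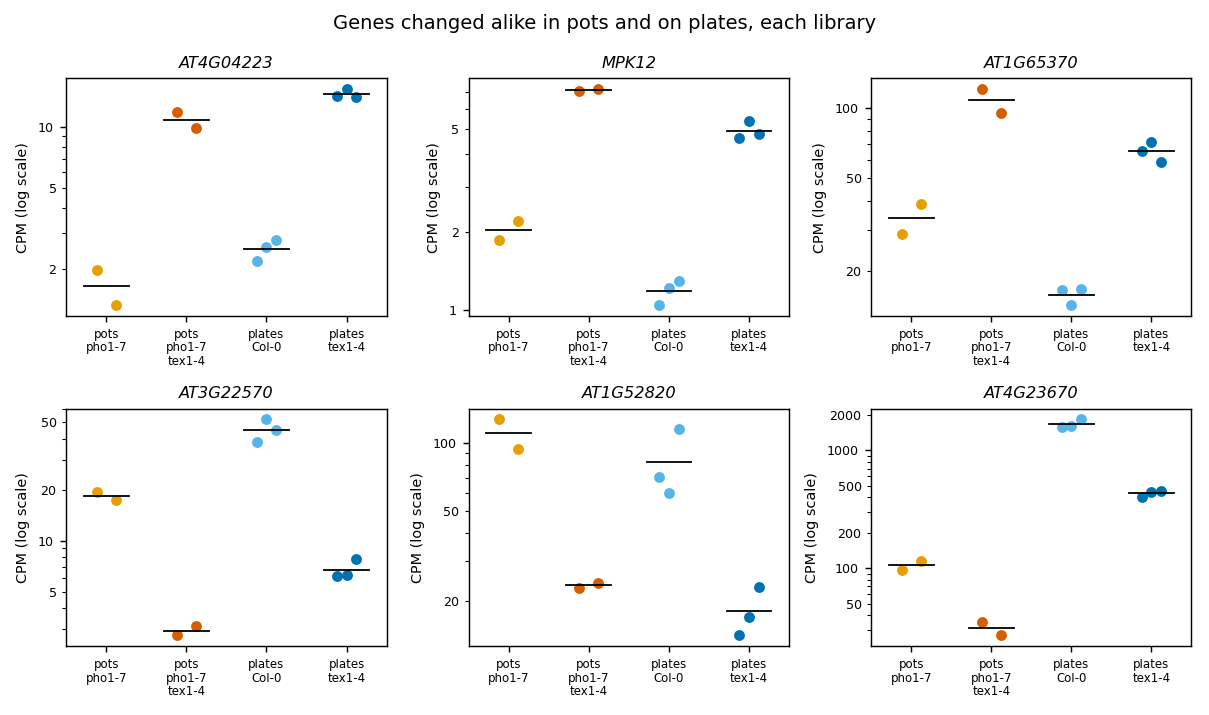
Level of 6 alike genes in each library, in CPM on a log scale, with the bar at the group mean. In each gene the mutant libraries lie on the same side of their own controls in pots and on plates, as for MPK12, which rose from 1.86 and 2.2 to 7.06 and 7.16 CPM in pots and from 1.04 to 1.29 to 4.63 to 5.37 CPM on plates.

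Some of the largest shared changes were too variable to call alike. They were named after their values were seen. AT1G20150, annotated as a subtilisin-like protease, rose by 3.70 in pots and 4.56 on plates. NDB4, a mitochondrial NAD(P)H dehydrogenase, rose by 3.02 and 4.60, and AT5G25230, annotated with an elongation factor domain, by 2.54 and 3.38. BGLU34, a myrosinase that cleaves glucosinolates, had 150 and 133 CPM in pho1-7 and 12.7 and 13.8 CPM in pho1-7 tex1-4, with 90.1 to 129 CPM in Col-0 on plates and 3.61 to 8.12 CPM in tex1-4. Its groups did not overlap, and the fall was -3.42 ± 0.35 and -4.44 ± 0.3.

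The microRNA loci MIR163 and MIR398b were among the genes called lower in both settings. They were 2 of 63 microRNA loci tested, against 0.9% of all genes, and 0 loci were higher in both, against 0.741%, so the counts are too small to set the microRNA loci apart. Their mature sequences from RefSeq (TAIR10.1) are shown because the precursors carry the change, with the seed, bases 2 to 8, in capitals. The sequence of miR163 lies at chr1:24884359-24884382 on the plus strand and that of miR398b at chr5:4691107-4691127 on the plus strand.
ath-miR163: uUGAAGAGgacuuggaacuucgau
ath-miR398b-3p: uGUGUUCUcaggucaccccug

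MIR163, whose microRNA cleaves mRNAs of small-molecule methyltransferases, was sparse in pots, with 21 and 30 reads in pho1-7 and 4 and 7 reads in pho1-7 tex1-4. It was abundant on plates, with 2813, 5080 and 3414 reads in Col-0 and 755, 619 and 1036 reads in tex1-4. The change was -2.54 ± 0.70 in pots and -2.42 ± 0.22 on plates. MIR398b, whose microRNA lowers copper/zinc superoxide dismutases, had 94 and 78 reads in pho1-7 and 30 and 43 in pho1-7 tex1-4, with 343, 192 and 392 in Col-0 on plates and 66, 58 and 126 in tex1-4. Its change was -1.57 ± 0.47 and -2.10 ± 0.34, and for both precursors the groups were apart in both settings. None of the 7 tested genes known as targets of these microRNAs rose in both settings, and CSD1, the cytosolic superoxide dismutase, had log2 changes of -0.71 and -0.11 that were not called.

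In the trans-acting siRNA pathway, the list members called in either setting were higher without TEX1. In this pathway a microRNA cuts a noncoding TAS transcript, which is then copied and diced into siRNAs that silence other mRNAs. Of 19 list members tested, 5 were higher in pots (1.68% of all genes were) and 2 on plates (2.72% of all genes), 2 were higher in both, and none was lower in either. The median log2 change was 0.70 in pots and 0.35 on plates. Without the first pho1-7 library 3 were higher in pots, and without the second Col-0 library from plates 1 was higher there. AGO7, the argonaute that acts on TAS3, had changes of -0.27 and -0.87 that were not called.

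TAS1C was the list member in the alike class. It had 7.31 and 8.19 CPM in pho1-7 and 24.8 and 23.7 CPM in pho1-7 tex1-4. On plates it had 10, 8.16 and 8.28 CPM in Col-0 and 16.7, 19.6 and 17.9 CPM in tex1-4. The groups were apart in both, with changes of 1.64 ± 0.12 and 1.03 ± 0.099 and a difference of 0.61 (0.26 to 0.96, adjusted p = 0.099, under the 2-fold threshold for a call). TAS2 next to it changed by 1.08 and 0.68 and TAS1B by 1.1 and 0.35, both called in pots only. Neither had a called difference.

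Both TAS1C and TAS2 are cut by miR173, and the site of each is shown because these precursors are where the pathway starts. The mature miR173 lies at chr3:8236161-8236182 on the plus strand, with the seed in capitals. The sites lie on the minus strand of chromosome 2, at chr2:16537890-16537911 in TAS1C and chr2:16539991-16540012 in TAS2, and capitals there mark bases that pair with miR173. Each site has 2 mismatches (TAIR10.1).
ath-miR173-5p: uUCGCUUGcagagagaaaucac
TAS1C site: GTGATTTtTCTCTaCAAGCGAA
TAS2 site: GTGATTTtTCTCTcCAAGCGAA

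Among the mRNAs that these siRNAs silence, HTT1, a heat-tolerance gene named as a TAS1 target, rose by 3.12 ± 0.72 in pots and 2.88 ± 0.39 on plates. Its reads were few, with 0.0323 and 0.0148 CPM in pho1-7 and 0.165 and 0.249 CPM in pho1-7 tex1-4, and 0.0458 to 0.148 CPM in Col-0 on plates and 0.566 to 0.822 CPM in tex1-4. The groups did not overlap. AT1G62930 (RPF3), a pentatricopeptide repeat gene of the clade that TAS2 siRNAs target, had 4.46 and 4.81 CPM in pho1-7 and 10.6 and 10.7 CPM in pho1-7 tex1-4, a change of 1.2. On plates its change was 0.61, which was not called. Related genes of this clade are close copies, so the split of reads among them is uncertain.

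Of the 15 THO and TREX genes, TEX1 was called in both settings and the other 14 in neither. The median log2 change of the list was 0.01 in pots and 0.01 on plates.

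Another THO comparison shared no library with either of the others and was added after the data were examined. In pots, pho1-7 hpr1 was compared with Col-0, HPR1 being another THO subunit. Its allele is named hpr1-5 in the labels. In this comparison 719 of 22667 genes were higher (3.17%) and 765 lower (3.37%). The comparison also holds the pho1-7 mutation, whose share cannot be told apart from that of HPR1.

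Many of the genes called in both TEX1 comparisons were also called there, in the same direction. Of the 168 genes higher in both, 80 were higher and 7 lower in pho1-7 hpr1, and the median change was 1.06 on the log2 scale. Of the 204 genes lower in both, 83 were lower and 1 higher, with a median of -0.90. Among the alike genes, 17 of 48 that rose were higher and 24 of 73 that fell were lower, with medians of 0.92 and -0.88. The median over all genes was 0.03. By contrast, the 112 genes called lower in pots only, with a called difference, had a median of 0.02, with 35 higher and 13 lower.

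Several genes called in both TEX1 comparisons had these values in pho1-7 hpr1 over Col-0. AT4G04223 was higher by 2.44, AT5G60022 by 1.68 and AT1G50180 by 1.18, and AT1G52820 was lower at -2.06, AT4G23670 at -1.69 and AT5G66052 at -1.19. The changes of MPK12 at 0.86, NAC103 at 0.75, AT3G22570 at -0.96 and TAS1C at 0.95 were in the same direction and under 2-fold. AT1G65370 went the other way, with 29.1 and 28.3 CPM in Col-0 and 14 and 14.7 CPM in pho1-7 hpr1, a change of -1.0. BGLU34 was at 0.05, with 130 and 125 CPM in Col-0 and 131 and 134 CPM in pho1-7 hpr1.

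A close upstream neighbour was more common among the genes higher in both settings, which is given as a count with no test. A close neighbour was defined as an upstream gene on the same strand that ends under 500 bases away, a feature the counts did not use. Such a neighbour was found for 44.6% of the genes higher in both, against 23.0% of all genes tested and 23.0% of those lower in both. Among the alike genes it was 45.8% of those that rose and 24.7% of those that fell. Genes of a single exon made up 30.4% of those higher and 32.8% of those lower in both, against 16.7% of all genes, and their median lengths were 1869.5 and 1813.5 bases against 2309. The median level was also lower, at 0.785 CPM for genes higher in both and 3.08 CPM for those lower in both, against 15.6 CPM over all genes tested.

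The extensions of transcripts past their annotated 3' end are a second readout of the same libraries. The authors defined them from reads between genes and counted reads in each. They already compared them between the settings and reported that many of the tex1-4 ones were shared. Their calls came from DESeq2, so their counts are not those given here. Of 1462 tested, the ratio of extension to gene reads was higher in 65 in pots (4.45%), in 159 on plates (10.9%) and in 48 in both (3.28%), and 19 were lower in both. The difference between settings was called lower in pots in 39 and higher in 5. Without the first pho1-7 library the 48 became 27. Of the 48 genes with such an extension raised in both, none was itself higher in both settings and 1 was lower in both. For 34 of the 48, the next gene downstream on the same strand was among the genes tested. Of these 34, 6 were higher in both settings and 0 lower, which is 17.6% against the 0.741% over all genes. Of the 6, 4 were alike. Of the 759 tested genes with a tested extension upstream, 15 were higher in both, these 6 among them. A neighbour under 500 bases upstream was found for 73.5% of the 34, against 23.0% of all genes tested. The neighbour feature and the count of downstream genes were chosen with the data seen.

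MPK12 was one of the 6. It starts 48 bases past the end of BPS2 (AT2G46080), whose extension had 171 reads in pho1-7 tex1-4 and 38 in pho1-7, libraries summed. On plates the extension had 223 reads in tex1-4 and 22 in Col-0. The log2 change of this ratio was 1.72 ± 0.29 in pots and 3.12 ± 0.3 on plates. PIP5K5 starts 23 bases past AT2G41200, whose extension ratio changed by 1.75 and 1.55. AT1G50180, a disease resistance gene of the NB-ARC class, starts 131 bases past AT1G50170, whose ratio changed by 1.44 and 1.74.

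The remaining 3 were AT4G25707, 13 bases past AT4G25710, AT1G20150, 279 bases past AT1G20160, and TBL4, 481 bases past AT5G49350. AT4G25707 is annotated as a splicing factor subunit, and TBL4 belongs to a family that acetylates cell-wall polysaccharides. Their upstream extension ratios changed by 1.16 and 1.26, by 1.73 and 2.38 and by 1.11 and 1.55. Of all 34 downstream genes, 10 were called higher in pots and 7 on plates, where 1.68% and 2.72% of all genes were. Their median log2 change was 0.18 in pots and 0.12 on plates, against -0.03 and 0.0006 over all genes. AT5G59770, 651 bases past MYB59, was called in pots only, at 2.11 against 0.16, while the extension ratio of MYB59 rose by 1.07 and 1.71. AT5G15660 had changes of 1.12 in pots, which was not called, and 3.28 on plates, which was. FAF2 fell by 1.82 in pots and had 0.99 on plates, not called. Reads that run on from the upstream gene and reads of transcripts that start at the downstream gene are not separated by these counts.

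**Figure D3:**
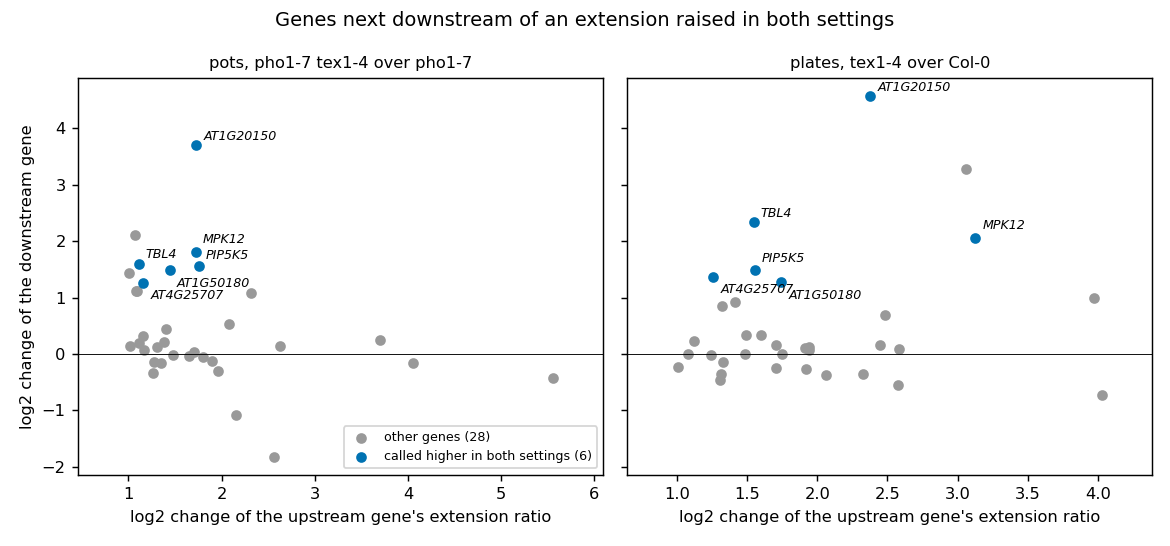
Log2 change of 34 genes that lie next downstream of an extension raised in both settings (vertical axes) against the log2 change of the upstream extension ratio (horizontal axes), in pots on the left and on plates on the right. The 6 genes called higher in both settings are named and lie above 1 in both panels, and most of the other 28 lie near 0.

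The response differed between pots and plates in 336 genes, 111 with a higher change in pots (0.49%) and 225 with a lower one (0.993%). Of these, 112 were called lower in pots only and 28 higher in pots only, 47 lower on plates only and 39 higher on plates only. A further 79 were called in neither setting, 12 in both in the same direction and 19 in opposite directions. This count moved with single libraries. It was 128 without the first pho1-7 library, 144 without the first pho1-7 tex1-4 library and 572 without the second Col-0 library from plates, and DESeq2 called 493.

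Of the gene lists described here, that of phosphate starvation held the most called differences. When phosphate is short, the transcription factor PHR1 activates genes for uptake, recycling and lipid replacement, and SPX proteins hold it back when phosphate is ample. Of 36 list members tested, 10 were lower in pots and 2 higher, whereas on plates 2 were lower and 3 higher. Over all genes the shares were 2.85% lower and 1.68% higher in pots and 3.53% and 2.72% on plates. The plate counts of 2 and 3 are too small to set the list apart there. The difference was called in 10, lower in pots in 9 and higher in 1, against 0.993% and 0.49% of all genes. The median log2 change of the list was -0.33 in pots and -0.05 on plates. The 10 lower in pots became 6 without the first pho1-7 library, and the 9 lower in the difference became 4 without either the first pho1-7 or the first pho1-7 tex1-4 library.

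The noncoding RNAs IPS1 and AT4, which bind and block the microRNA miR399 and so spare PHO2, fell in pots. IPS1 had 15.6 and 12.4 CPM in pho1-7 and 0.942 and 0.642 CPM in pho1-7 tex1-4, and 0.911 and 0.698 CPM in Col-0 from pots. On plates the levels were 0.355, 0.412 and 0.445 CPM in Col-0 and 0.442, 0.755 and 0.255 CPM in tex1-4. The groups were apart in pots and overlapped on plates, with changes of -4.17 ± 0.38 and 0.25 ± 0.35 and a difference of -4.43 (-5.57 to -3.28, adjusted p = 0.0061). AT4 had 413 and 319 CPM in pho1-7 and 68.4 and 60.3 CPM in pho1-7 tex1-4, against 31 to 35.3 CPM in Col-0 on plates and 25.1 to 45.3 CPM in tex1-4. Its change was -2.51 in pots and 0.07 on plates.

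SPX1, a phosphate sensor that inhibits PHR1, had 54.6 and 48.6 CPM in pho1-7 and 19.3 and 16 CPM in pho1-7 tex1-4. The plate libraries had 11.4, 17.4 and 13.8 CPM in Col-0 and 15.8, 23.3 and 18.7 CPM in tex1-4. The pot groups were apart and the plate groups overlapped, with changes of -1.55 ± 0.22 and 0.44 ± 0.17 and a difference of -1.99 (adjusted p = 0.011). SPX3, a close relative of SPX1, fell by 2.24 in pots and had 0.18 on plates, but its difference was not called (adjusted p = 0.15). PHO1;H1, the closest relative of PHO1 and also a phosphate exporter, had 116 and 106 CPM in pho1-7 and 44.6 and 45.2 CPM in pho1-7 tex1-4, a change of -1.31, against 0.40 on plates.

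Among enzymes of phosphate recycling, PS2, PAP17, PLDP2 and PECP1 were called lower in pots, while PAP10, PAP12 and GDPD1 were not called in either setting. The pyrophosphatase PS2 changed by -1.28 in pots and 0.98 on plates, where the groups did not overlap but the change stayed under 2-fold. The acid phosphatase PAP17 changed by -1.44 and -0.07, and the phospholipase D PLDP2 by -1.17 and 0.04. For all 3 the difference was called, at -2.26, -1.37 and -1.21. The phosphatase PECP1 was called in opposite directions, at -3.92 ± 1 and 3.68 ± 1.1. Its reads were very few on plates, with 0.0115 to 0.0318 CPM in Col-0 and 0.103, 0.726 and 0.0566 CPM in tex1-4, so 1 library carries much of that rise.

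Among lipid replacement genes, MGD3 was called and MGD2 was not. The galactolipid synthase MGD3 was lower in both settings, with 11.2 and 6.32 CPM in pho1-7 and 1.82 and 2.12 CPM in pho1-7 tex1-4, and 2.45 to 2.57 CPM in Col-0 on plates and 0.86 to 1.53 CPM in tex1-4. Its groups were apart in both, with changes of -2.15 and -1.07. Its relative MGD2 had -0.79 and 0.43, called in neither setting, with a called difference of -1.23. The ribonuclease RNS1 was higher in both, at 1.01 and 1.41. On plates the transporter genes PHT1;5 and PHT1;9 were called, at 1.79 and -1.97, with 0.63 and -0.58 in pots.

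PHO2, a ubiquitin-conjugating enzyme that removes PHO1 and phosphate uptake transporters, rose in pots. It had 53.7 and 52.3 CPM in pho1-7 and 157 and 164 CPM in pho1-7 tex1-4, with 683 and 684 CPM in Col-0 from pots. On plates it had 301, 313 and 276 CPM in Col-0 and 374, 313 and 317 CPM in tex1-4. The groups were far apart in pots and closer on plates, with changes of 1.60 ± 0.1 and 0.17 ± 0.082 and a difference of 1.43 (1.13 to 1.72, adjusted p = 0.0016).

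PHO2 mRNA is cut by miR399, whose precursors are made in phosphate-starved roots. Mature miR399d and the PHO2 site with the fewest mismatches to it are shown because the MIR399d precursor had its highest count in pho1-7, and miR399f because its locus lies next to AT2G34210, described after it. miR399d lies at chr2:14442988-14443008 on the minus strand and miR399f at chr2:14445084-14445104 on the plus strand, with the seed that they share in capitals. PHO2 holds 5 sites with at most 3 mismatches, and the one printed lies at chr2:14281884-14281904 on the minus strand, with bases that pair with miR399d in capitals (TAIR10.1).
ath-miR399d: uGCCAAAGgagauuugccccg
ath-miR399f: uGCCAAAGgagauuugcccgg
PHO2 site: ttGGGCAAATCTCCTTTGGCA

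MIR399d had 21 and 20 reads in pho1-7, 0 in both pho1-7 tex1-4 libraries, and 4 in each pho1-7 hpr1 library. MIR399c had 35 and 24 reads in pho1-7 and 0 and 3 in pho1-7 tex1-4, and MIR399b had 10 and 11 in pho1-7 and 1 and 3 in pho1-7 tex1-4. None of the 3 had a read in any Col-0 library from pots or in any of the 6 plate libraries. MIR399f had 0 and 1 read in pho1-7 and 0 in both pho1-7 tex1-4 libraries. These counts are given as a description with no test, since the loci were looked up after the data were examined and passed the filter on low counts only through pho1-7, if at all.

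The gene AT2G34210, annotated as a homologue of the elongation factor Spt5, starts 823 bases past MIR399f on the same strand of chromosome 2. It had 578 and 613 reads in pho1-7 and 19 and 58 reads in pho1-7 tex1-4, with 7 and 5 in Col-0 from pots and 370 and 400 in pho1-7 hpr1. The levels on plates were 3, 5 and 4 reads in Col-0 and 26, 14 and 16 reads in tex1-4. The groups were apart in both settings in opposite directions, with changes of -4.35 ± 0.29 and 1.99 ± 0.4 and a difference of -6.34 (-7.40 to -5.27, adjusted p = 0.00082).

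Promoters of the phosphate genes were searched for the site of PHR1, GNATATNC, which reads the same on both strands. The window ran from 500 bases before to 50 bases after each annotated start (RefSeq, TAIR10.1). The motif was in 11.2% of all 32835 promoters and in 11.5% of those of tested genes. It was in 6 of the 10 list members lower in pots and in 16 of the other 26, which is 61.5%. It was in 20.1% of genes with a lower difference in pots, in 24.3% of those called lower in pots only, in 13.5% of those with a higher difference, and in 11.6% of alike genes. A match describes letters and not a bound site.

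Matches in 4 of the 6 promoters are printed as examples, with 8 bases on either side and the motif in capitals. The SPX3 promoter holds 2 matches, of which 1 is printed, and those of PECP1 and SPX1 are not printed. The flanking bases were not compared. They lie at chr2:18606312-18606335 on the plus strand for SPX3, at chr5:894548-894571 on the plus strand for AT4, at chr3:1635006-1635029 on the plus strand for PLDP2 and at chr1:27466550-27466573 on the minus strand for PS2.
SPX3: aaagctaaGCATATCCgctttcat
AT4: ggtaattgGCATATTCcttttaga
PLDP2: accaagttGCATATACacggcagg
PS2: gggtaacgGAATATTCttctctta

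**Figure D4:**
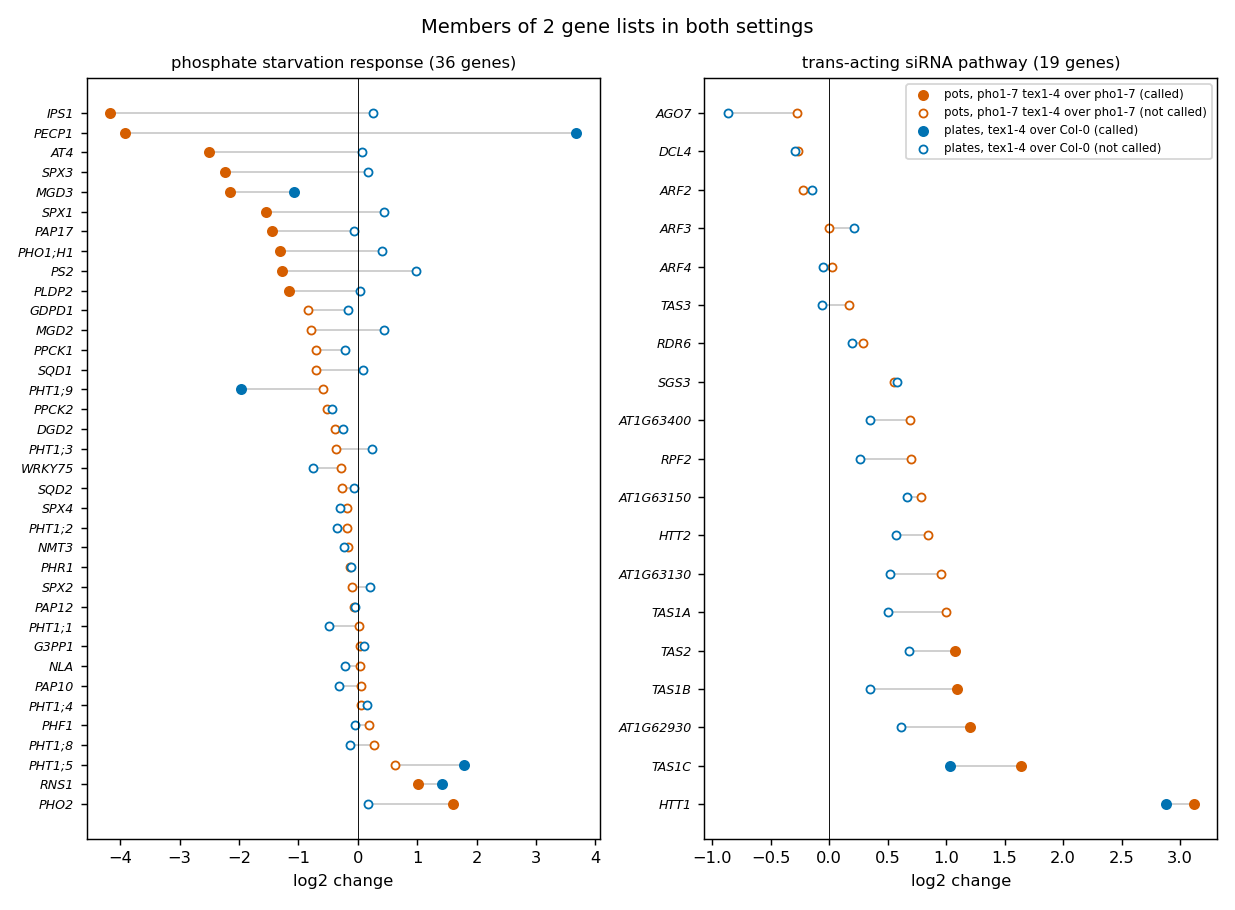
Log2 change of each tested member of the phosphate starvation list (36 genes, left) and of the trans-acting siRNA list (19 genes, right), with pots in orange, plates in blue and filled circles for called changes. On the left 10 orange circles are filled below -1 while the blue ones stay mostly near 0, and on the right 5 orange and 2 blue circles are filled, all above 1.

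Among other named genes called in pots only, SULTR1;3, a sulfate transporter of the phloem, had 3.18 and 4.23 CPM in pho1-7 and 0.0661 and 0.0383 CPM in pho1-7 tex1-4. On plates it had 1.62, 1.43 and 1.48 CPM in Col-0 and 1.1, 1.55 and 1.29 CPM in tex1-4. The groups were apart in pots and overlapped on plates, with changes of -6.20 ± 0.33 and -0.20 ± 0.18. RL3, a small MYB-related protein, had 10.8 and 13.7 CPM in pho1-7 and 0.0165 and 0.0766 CPM in pho1-7 tex1-4, a change of -7.79 ± 0.54 against 0.09 on plates. With so low a level in the double mutant, the size of the RL3 fall is uncertain. Its difference was -9.50 without the second pho1-7 tex1-4 library and -7.39 without the first. For both genes the Col-0 libraries from pots were also low, at 0.0136 and 0.0145 CPM for SULTR1;3 and at 0.0816 and 0.291 CPM for RL3.

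BT5, a BTB and TAZ domain protein, fell from 101 and 94.8 CPM to 42.5 and 34.3 CPM in pots, a change of -1.36 against 0.28 on plates. AT5G21940 fell from 200 and 177 CPM to 40.2 and 36.4 CPM, at -2.30 against -0.29. AT3G59940, a kelch repeat F-box protein that targets phenylpropanoid enzymes and cytokinin response regulators, had -2.15 ± 0.095 in pots and -0.56 ± 0.074 on plates. The nitrate reductase gene NIA1 fell from 337 and 349 CPM to 152 and 162 CPM in pots, at -1.13, and had 0.16 on plates. SDI1, a regulator induced by sulfur shortage, changed by -1.52 and -0.18. Each of these differences was called, with adjusted p between 0.00082 for BT5 and 0.037 for SDI1.

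Other named genes were called higher in pots only. AT5G59770, an enzyme of the PTPLA family that takes part in very-long-chain fatty acid elongation, had 7.66 and 7.13 CPM in pho1-7 and 33.1 and 30.6 CPM in pho1-7 tex1-4. In the plate libraries it had 21.6, 17.5 and 21 CPM in Col-0 and 20.6, 23.9 and 22.7 CPM in tex1-4. The groups overlapped on plates only, and the changes were 2.11 ± 0.12 and 0.16 ± 0.092. UMAMIT36, of a family of amino acid exporters, had 2.78 in pots and -0.52 on plates. AT3G59930, a defensin-like protein gene, rose from 168 and 152 CPM to 483 and 365 CPM in pots, at 1.41, and had -0.87 on plates.

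Of the named genes called higher on plates only, HKT1, which takes sodium back from the xylem, had 91.3 and 89.7 CPM in pho1-7 and 92.3 and 90.6 CPM in pho1-7 tex1-4. On plates the level was 5.01, 3.64 and 4.99 CPM in Col-0 and 12.8, 12.8 and 11 CPM in tex1-4. The groups were apart on plates, with changes of 0.01 ± 0.13 in pots and 1.42 ± 0.12 on plates and a difference of -1.41 (adjusted p = 0.0078). UMAMIT29, another amino acid exporter, had -0.15 and 1.52, the MATE efflux gene AT1G64820 had -0.57 and 2.38, and AT5G42610, annotated as a calcium uniporter, had -0.10 and 2.65.

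Genes that fell on plates only included SKOR, the channel that loads potassium into the xylem. SKOR had 188 and 184 CPM in pho1-7 and 137 and 152 CPM in pho1-7 tex1-4, and 11.7, 10.8 and 10 CPM in Col-0 on plates and 3.3, 3 and 4.25 CPM in tex1-4. The changes were -0.36 ± 0.13 and -1.62 ± 0.12, and the difference was 1.26 (0.86 to 1.66, adjusted p = 0.012). BGLU7, a beta-glucosidase, fell from 43.7 to 47.9 CPM in Col-0 to 7.1 to 8.34 CPM in tex1-4, at -2.58, against -0.93 in pots. The peroxidase AT5G64120 had 717 to 1153 CPM in Col-0 and 141 to 236 CPM in tex1-4, at -2.08, against 0.81 in pots. AT1G35186 had -3.59 against -0.79, and AT2G23910, an oxidoreductase with a Rossmann fold, had -1.03 against 0.53.

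Genes called in opposite directions were mostly low in 1 of the settings. AT2G36255, a defensin-like gene, had 22.5 and 16.8 CPM in pho1-7 and 195 and 116 CPM in pho1-7 tex1-4, but 0.477 to 0.897 CPM in Col-0 on plates and 0.0191 to 0.141 CPM in tex1-4. Its groups were apart in both settings, at 2.99 ± 0.32 and -2.75 ± 0.56. SWEET12, a sucrose exporter of the phloem, rose from 2.09 and 1.33 to 3.8 and 3.93 CPM in pots and fell from 2.35 to 3.57 CPM to 0.584 to 1.18 CPM on plates, at 1.18 ± 0.34 and -1.64 ± 0.28. The noncoding RNA gene AT1G15405 had -1.50 and 1.59, the methyltransferase gene AT1G15125 had 1.23 and -1.24 and overlaps AT1G15120 on the same strand, and the patatin-like lipase gene PLP5 had -1.09 and 1.06. AT1G72060, a protease inhibitor, had -1.45 and 1.15, and the receptor kinase gene AT3G53590 had -1.18 and 1.1, on at most 0.122 CPM in any plate library.

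The pot call of SWEET12 was lost without any of 3 libraries, both of pho1-7 tex1-4 and the second of pho1-7, where its change was 1.2, 1.16 and 0.89. For AT1G15125 it was lost at 0.90 without the second pho1-7 tex1-4 library and 0.98 without the second pho1-7 library. For PLP5 and AT3G53590 it was lost without the first pho1-7 library, at -0.87 and -0.98. On plates, the call of PLP5 was lost at 0.97, 0.92 and 0.93 without the first or the last Col-0 library or the last tex1-4 library. That of AT1G72060 was lost at 0.75 without the second tex1-4 library, and that of AT3G53590 at 0.82 and 0.87 without the first library of Col-0 or of tex1-4. None of the named genes refitted under the alternatives turned direction, but most were picked from the main fit for clear changes.

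**Figure D5:**
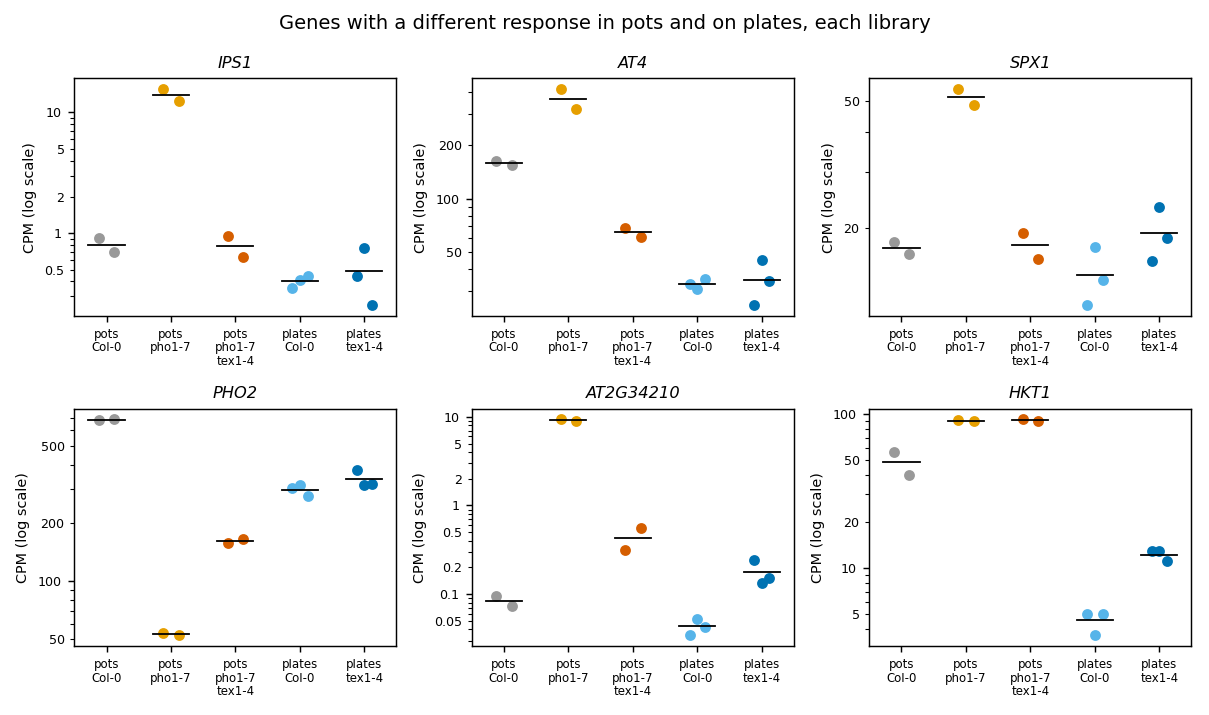
Level of 6 genes whose response differed between the settings, in each library, in CPM on a log scale, with the bar at the group mean and the Col-0 libraries from pots in grey. IPS1, AT4, SPX1 and AT2G34210 are high in pho1-7 and lower in pho1-7 tex1-4, PHO2 rises from 53.7 and 52.3 to 157 and 164 CPM, and HKT1 rises on plates only, from 3.64 to 5.01 CPM to 11 to 12.8 CPM.

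The iron, nitrate and sulphur lists each held 1 member called in pots. Among 20 iron-deficiency genes, 1 was higher in pots, 3 were higher and 1 lower on plates, and the medians were -0.03 and 0.03. Over all genes 1.68% were higher in pots, 2.72% higher and 3.53% lower on plates. Counts of 1 in these short lists are too small to set them apart. The transcription factor genes BHLH38, BHLH39 and BHLH100, which switch on iron uptake, were the 3 higher on plates, at 1.43, 1.12 and 2.80, and had 0.05, 0.32 and 1.19 in pots, not called. S8H, which makes the iron-mobilizing coumarin fraxetin, had 11.9 and 11.9 CPM in pho1-7 and 23.8 and 24.7 CPM in pho1-7 tex1-4, a change of 1.03, and was called in the opposite direction on plates at -2.25, on at most 0.785 CPM. Of 12 nitrate genes, NRT2.1 and NRT2.4, high-affinity nitrate transporters, were called on plates at -1.59 and 1.96, with -0.40 and 0.31 in pots. Of 12 sulfur-deficiency genes, SDI1 was the one called in pots and BGLU28 the one called on plates, at 1.12.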

How the data were processed

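RNA of roots was sequenced from strand-specific poly(A)+ libraries. The authors mapped the reads with Hisat2 to TAIR10.31 and counted them with HTSeq-count. Tool versions are not given in the sources used here. The deposited values are raw counts of reads per gene and per 3' extension, with no normalization. Lines that name no gene held 17.1% to 19.6% of the reads and were left out. Groups and replicate numbers came from the sample labels.

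The 10 libraries were fitted together with edgeR 4.0.16 (limma 3.58.1, R 4.3.3) using filterByExpr, TMM scaling, 1 mean per group and the quasi-likelihood test. The contrasts were the mutant effect in each setting and the difference between them. CPM are TMM-scaled, and those of Col-0 and pho1-7 hpr1 from pots came from a fit of all 14 libraries. Calls needed an adjusted p under 0.1 (Benjamini-Hochberg over all genes tested) and a change over 2-fold, the thresholds that the study states for extensions. Extensions with at least 10 reads were tested as the ratio to gene reads, with a term for each library. Replicates differed by more than sampling noise in every pair (chi-square per degree of freedom of 12.7 to 132) and were counted separately.

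The members and gene lists were chosen with earlier results of these data known. Named genes are TEX1, PHO1 and, among genes with at least 1 CPM on average whose groups did not overlap, up to 10 alike genes each way by the smaller of both changes, up to 8 called in opposite directions and up to 6 called in 1 setting, each way, by the adjusted p of the difference, together with called members of the lists. Other genes are also named outside this rule, such as uncalled list members, microRNA targets, downstream genes and relatives of a named gene. Not all of them are marked in the text, and they were chosen with the data seen. Names and sequences came from RefSeq TAIR10.1, which held 32835 of the 33602 gene IDs and 22510 of the 22670 tested. In simulated data of 22670 genes, 94% of genes changed 4-fold in both settings were called in both and 81.5% were classed alike. Of those changed 4-fold in pots only, 84.5% had a called difference. Among unchanged genes, 15 were called in pots, 6 on plates and 14 in the difference. The simulated libraries shared a base level per gene across the settings, and none stood apart from its group. Smaller changes were not simulated, so these shares do not carry over to changes near 2-fold. Alternatives were other scaling, filters, thresholds, DESeq2 1.42.0, thinned counts, other sets of libraries and a replicate block.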

Additional observations from a re-analysis of the deposited data

Results flagged for a closer look

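Each gene here is listed because its log2 change in pots minus that on plates passed edgeR's quasi-likelihood test of the difference or because it was called in opposite directions. The target genes TEX1 and PHO1 differed by -1.39 and 1.26. In the phosphate starvation list the difference was -7.60 for PECP1, -4.43 for IPS1, -2.58 for AT4, -2.26 for PS2, -1.99 for SPX1 and -1.72 for PHO1;H1. It was -1.37 for PAP17, -1.23 for MGD2, -1.21 for PLDP2 and 1.43 for PHO2.

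In other lists it was 3.27 for S8H, -1.28 for NIA1, -1.34 for SDI1, 1.1 for CCA1, 1.26 for SKOR and -1.41 for HKT1. Among genes called in opposite directions it was -6.34 for AT2G34210, 5.73 for AT2G36255, -3.09 for AT1G15405, 2.47 for AT1G15125, -2.15 for PLP5, 2.82 for SWEET12, -2.59 for AT1G72060 and -2.28 for AT3G53590.

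For genes called lower in pots it was -7.89 for RL3, -6.00 for SULTR1;3, -2.01 for AT5G21940, -1.64 for BT5 and -1.59 for AT3G59940. For genes called higher in pots it was 3.29 for UMAMIT36, 2.27 for AT3G59930 and 1.95 for AT5G59770. For genes called on plates it was -2.96 for AT1G64820, -2.75 for AT5G42610 and -1.67 for UMAMIT29, which rose there, and 2.89 for AT5G64120, 2.80 for AT1G35186, 1.65 for BGLU7 and 1.55 for AT2G23910, which fell there.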

How the results depend on the processing

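Without the fold threshold, 6768 genes were called in pots, 9661 on plates, 4407 in both, 194 in opposite directions and 764 in the difference, with 3846 alike and 75 extensions raised in both. At an adjusted p under 0.05, 11 genes were called in opposite directions and 218 in the difference. A filter of at least 1 CPM in every library of a group gave 829 genes on plates, from fewer genes tested, and each setting fitted alone gave 12 genes in opposite directions. Same-numbered deviations had correlations of -0.0817 in pots and -0.0971 to 0.0644 on plates. On plates, 1 of 6 libraries correlated best with its own number. With so few libraries a group, these values cannot settle whether the replicate numbers pair the libraries. With the replicate block, 886 genes were called in pots, 1296 on plates, 325 in both, 12 in opposite directions and 180 in the difference, with 109 alike. Leaving out 1 library at a time gave 565 to 1107 genes in pots, 1120 to 1491 on plates, 224 to 367 in both, 9 to 34 in opposite directions, 128 to 572 in the difference, 88 to 118 alike and 27 to 49 extensions raised in both. The lowest of these came without the first pho1-7 library except on plates, where it came without the second tex1-4 library. DESeq2 called 978, 1376, 359, 20 and 493 genes, with 112 alike, and 348 of its 359 were among the 372. Of 1617 values of named genes under these alternatives, 1598 kept their direction and side of the threshold, 18 lost the call, 1 gained it and 0 turned. Most of these genes were picked from the main fit for clear changes, and changed thresholds reuse that fit. Many of these values were therefore bound to hold, and they say little about the classes as a whole. AT3G53590 on plates lost it at an adjusted p under 0.05, with the block and with thinned counts. The cause was not tested. With 2 libraries a group in pots, the median standard error was 0.134 there, 0.107 on plates and 0.172 for the difference, so changes near 2-fold are decided by single libraries.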

Other observations

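Of 14 defence genes tested, 4 were called lower on plates and 1 in pots, against 3.53% and 2.85% of all genes, with median log2 changes of -0.72 and -0.33. The 1 member in pots is too small a count to set the list apart there. CYP81F2, which modifies indole glucosinolates, had 45.7, 257 and 56.3 CPM in Col-0 on plates and 31, 30.9 and 28.1 CPM in tex1-4, a change of -2.00. WRKY70, a transcription factor of salicylate signalling, had 5.44, 30.3 and 7.06 CPM in Col-0 and 6.3, 5.38 and 3.54 CPM in tex1-4, a change of -1.49. In both genes the second Col-0 library was far above the other two, and for WRKY70 the groups overlapped. FMO1, needed for systemic resistance, was the member lower in pots, from 17.7 and 11.2 CPM to 7.31 and 5.63 CPM.

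Of 17 clock genes tested, 2 were called lower on plates and 1 higher in pots, against 3.53% and 1.68% of all genes, counts too small to set the list apart. CCA1, a morning factor of the clock, had 302 and 276 CPM in pho1-7 and 303 and 298 CPM in pho1-7 tex1-4, against 23.3, 35.1 and 27.7 CPM in Col-0 on plates and 14, 13.6 and 14.4 CPM in tex1-4. LNK2, its coactivator partner, had 461 and 470 CPM in pho1-7 and 338 and 339 CPM in pho1-7 tex1-4, against 34.3 to 46.9 CPM in Col-0 on plates and 17.6 to 20.1 CPM in tex1-4. Both were called lower on plates, at -1.04 and -1.08.

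Of 8 heat shock genes, BIP3, a chaperone of the endoplasmic reticulum, was called higher on plates at 2.04 and HSFA2, a heat shock transcription factor, lower at -1.45, and none was called in pots, against 2.72% higher and 3.53% lower of all genes on plates. BIP3 had 1.35, 1.4 and 0.113 CPM in tex1-4, so its groups overlapped.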
